A study of Homo sapiens with 4 samples.

Results

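The miR-28 family of microRNAs (miRNAs) was described here by 5 mature arms: hsa-miR-28-5p, hsa-miR-28-3p, hsa-miR-151a-5p, hsa-miR-151a-3p and hsa-miR-708-5p, written without the species prefix from here on. They were chosen by name as relatives in sequence that each lie in an intron of a host gene, and all 5 were among the 1882 miRNA names listed in all 4 libraries. The libraries were small RNA libraries of HT29 and HCT15, established cell lines from human colorectal adenocarcinoma, each sampled once as parental cells and once as spheres. HT29 parental cells were grown in DMEM and HCT15 parental cells in RPMI, both with serum, and the spheres of both lines in DMEM-F12 with N2 Plus Supplement, bFGF and EGF. The submitters call the spheres cancer stem cells derived from spheres, and the labels give no sorting or marker for that state. With 1 library for each line and culture, no difference within a line has a replicate check.

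A miRNA hairpin is cut into 2 arms, 5p and 3p, and either can be loaded into an Argonaute protein and repress messenger RNAs that pair with its seed, bases 2 to 8. The arms of one hairpin have different seeds, so they act on different messenger RNAs although they are made from one transcript in equal numbers. An intronic miRNA is usually transcribed with its host, and unequal levels of its arms arise after transcription. The hosts here were LPP, a LIM-domain protein of focal adhesions, for miR-28; PTK2, the focal adhesion kinase, for miR-151a; and TENM4, a teneurin of the cell surface, for miR-708. In GENCODE 29 (GRCh38) MIR28 lies on chromosome 3, 188688781 to 188688866, on the plus strand, inside an intron of LPP. MIR708 lies on chromosome 11, 79402022 to 79402109, on the minus strand, inside an intron of TENM4. MIR151A lies inside an intron of PTK2. The host transcripts were not measured.

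The RefSeq table (GRCh38.p14) gave mature sequences for 2 of the 5 members, miR-28-3p and miR-708-5p, and for 2 related entries, miR-708-3p and miR-3139. They are shown to compare their seeds, which capitals mark. The 2 members shown have different seeds.
miR-708-5p: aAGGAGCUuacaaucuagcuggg
miR-3139: uAGGAGCUcaacagaugccuguu
miR-28-3p: cACUAGAUugugagcuccugga
miR-708-3p: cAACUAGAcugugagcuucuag
miR-708-5p and miR-3139 had the same seed. Outside the seed they were less alike, with 13 of 23 bases identical over their whole length. The 3p arms of miR-28 and miR-708 matched at 17 of 21 bases when shifted by 1 base against each other, and because of that shift their seeds differed. No other entry of the table had the seed of miR-28-3p.

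The HT29 libraries held 5806540 (parental cells) and 12794274 (spheres) listed miRNA reads, and the HCT15 libraries about 3189984 and 2325418, inferred from deposited RPKM values. Levels are given in CPM, reads scaled so that the listed miRNA reads of each library have the same total (counts per 1e6). Intervals are exact 95% intervals that cover counting error only, since the reads carry no molecular identifiers. All 9 epithelial miRNAs checked, such as miR-192-5p and miR-200c-3p, were detected in all 4 libraries, with summed levels of 23251 to 238778 CPM. The 11 markers of blood, stroma, endothelium, liver, muscle and neural cells summed to 46.5 to 543 CPM, with miR-142-3p the highest of them in HT29 and miR-486-5p in HCT15.

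All arms of the family but miR-708-5p were abundant. miR-151a-3p, the arm of miR-151a with the most reads in every library, reached 19738 CPM in HT29 parental cells against 30647 CPM in HT29 spheres, and 6550 against 4041 CPM in HCT15. It ranked 11th and 5th among all listed miRNAs in the HT29 libraries and 23rd and 36th in the HCT15 libraries. miR-151a-5p, its partner from the same hairpin, had 2597 CPM in HT29 parental cells, 1156 in HT29 spheres, 1987 in HCT15 parental cells and 1232 in HCT15 spheres. Both arms were thus highest in an HT29 library, miR-151a-3p in the spheres and miR-151a-5p in the parental cells.

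miR-28-3p had 839 CPM in HT29 parental cells, 947 in HT29 spheres, 5324 in HCT15 parental cells and 4228 in HCT15 spheres. It was the only member higher in both HCT15 libraries than in both HT29 libraries. miR-28-5p ran the other way between the lines, with 1145 CPM in HT29 parental cells against 397 in spheres, compared with 236 and 173 CPM in the same cultures of HCT15. These values from different lines are set side by side with no test, since the files of the lines are in different units.

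**Figure D1:**
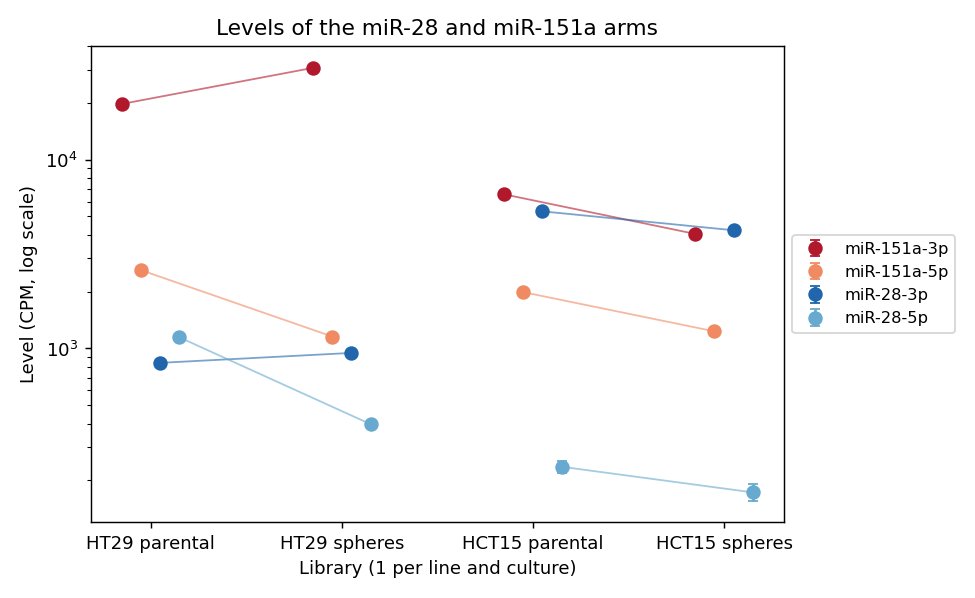
Level in CPM on a log axis of the 4 abundant arms in each library, with exact 95% counting intervals and lines that join the libraries of one cell line. In HT29 the 3p arms go up and the 5p arms go down from parental cells to spheres, and in HCT15 all 4 lines slope down in CPM.

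miR-708-5p had 0 reads in HT29 parental cells, 1 read in HT29 spheres and was listed at 0 in both HCT15 libraries. A count of 0 has an exact upper limit of 0.635 CPM for the HT29 parental library, 1.16 for HCT15 parental cells and 1.59 for HCT15 spheres. The 1 read in HT29 spheres has an exact upper limit of 0.435 CPM. No ratio is given for this arm. Its other arm, miR-708-3p, was at 0 in all 4 libraries. miR-3139, the entry with the same seed, had 25 and 54 reads in HT29 (4.31 and 4.22 CPM) and 1 read and 0 in HCT15. It lies inside an intron of GAB1, a docking protein of growth factor receptors (chromosome 4, 143343460 to 143343535, plus strand). The 5p arms of miR-28 and miR-708 are classed in one seed family together with miR-3139. Of these 3 entries, miR-28-5p, with 6650 and 5083 reads in HT29 and about 754 and 402 in HCT15, held nearly all reads in each library.

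The summed reads of the 5 members made up 2.43% of listed reads in HT29 parental cells, 3.31% in HT29 spheres, 1.41% in HCT15 parental cells and 0.967% in HCT15 spheres. In HT29 this sum was mostly one arm: miR-151a-3p held 81.2% of it in parental cells and 92.5% in spheres. In HCT15 it was shared, with 46.5% and 41.8% from miR-151a-3p and 37.8% and 43.7% from miR-28-3p. In HCT15 spheres miR-28-3p (interval 4145 to 4312 CPM) stood next to miR-151a-3p (3959 to 4123), and as the inferred value of 1 read differs by 2.68% between mature miRNAs of 21 and 23 bases, the order of these 2 was not firm. Counting intervals did not overlap for these 2, or for any other neighbours in the order of levels in any library.

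In HT29 the arms of both hairpins moved apart between the cultures: the 3p arms were higher and the 5p arms lower in spheres. Ratios are log2 of spheres over parental cells after TMM scaling, which sets the bulk of miRNAs rather than the total equal. miR-151a-3p had a log2 ratio of 1.22 (interval 1.21 to 1.23), while miR-151a-5p had -0.58 (-0.62 to -0.55). miR-28-3p had 0.76 (0.71 to 0.81) and miR-28-5p -0.94 (-0.997 to -0.892). The 4 directions were the same under the 6 scalings tried. Under them miR-151a-3p ranged from 0.63 to 1.44 and miR-28-3p from 0.17 to 0.98. The corresponding ranges were -1.17 to -0.36 for miR-151a-5p and -1.53 to -0.72 for miR-28-5p.

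Of the members, 1 (miR-151a-3p) was at least 2-fold higher in HT29 spheres and 0 at least 2-fold lower. Among all 221 miRNAs averaging 50 CPM or more over the HT29 libraries these shares were 12.7% and 19.9%, so 1 of the 4 members that reached this level is near the background. The count depended on the scaling: with total counts 0 were higher and 2, both 5p arms, were lower. From the highest ratio down, miR-151a-3p stood 21st and miR-28-3p 40th of the 221, and miR-151a-5p 160th and miR-28-5p 176th. The middle 50% of the 221 lay between -0.63 and 0.66.

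In HCT15 the 2 arms of each hairpin kept together. miR-151a-3p had a log2 ratio of -0.34 (interval -0.38 to -0.31) and miR-151a-5p -0.34 (-0.40 to -0.27), each below 0 under all 6 scalings. Those of miR-28-3p, 0.02 (-0.02 to 0.06), and miR-28-5p, -0.10 (-0.28 to 0.08), had intervals that include 0 and signs that changed with the scaling. None of the members was 2-fold different, where 4.0% of the 200 miRNAs averaging 50 CPM or more in HCT15 rose past 2-fold in spheres and 2.0% fell past it. With total counts, which follow the CPM values, the 4 ratios lay between -0.70 and -0.33.

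**Figure D2:**
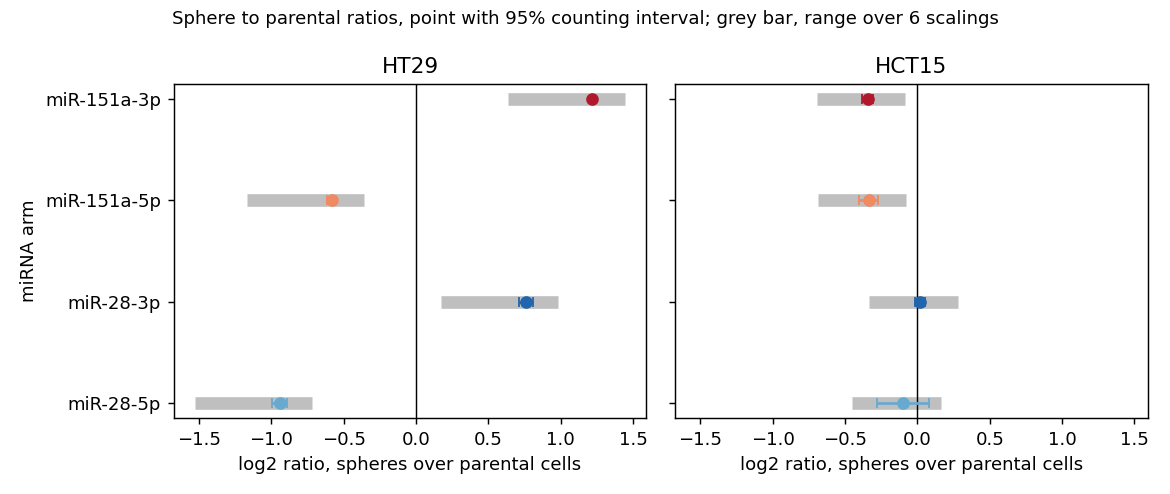
Log2 ratio of spheres over parental cells for the 4 abundant arms in HT29 (left) and HCT15 (right), as points with 95% counting intervals; grey bars span the values under 6 scalings. In HT29 the 3p arms lie above 0 and the 5p arms below 0 over the whole bar, and in HCT15 the bars of both miR-28 arms cross 0.

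The arm ratio within a hairpin does not depend on scaling, because both arms are read in the same library. In HT29 the 5p arm made up 57.7% of miR-28 reads in parental cells (interval 56.8 to 58.6) and 29.6% in spheres (28.9 to 30.2), so the arm with more reads differed between the cultures. For miR-151a the 5p share was 11.6% (11.5 to 11.8) in parental cells and 3.64% (3.58 to 3.69) in spheres. The 5p to 3p ratio was thus 3.25-fold lower in HT29 spheres for miR-28 (log2 change -1.70, interval -1.77 to -1.63) and 3.49-fold lower for miR-151a (-1.80, -1.84 to -1.77). The changes of the 2 hairpins, which come from different chromosomes and hosts, were close in size.

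In HCT15 the arm ratios of both hairpins were near level. The 5p share of miR-28 was 4.25% (interval 3.96 to 4.56) in parental cells and 3.93% (3.56 to 4.32) in spheres, with a log2 change of -0.12 (-0.30 to 0.06). That of miR-151a was 23.3% (22.8 to 23.8) and 23.4% (22.6 to 24.1), with a log2 change of 0.01 (-0.07 to 0.08). Both intervals, which cover counting error only, exclude a change of the size measured in HT29.

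**Figure D3:**
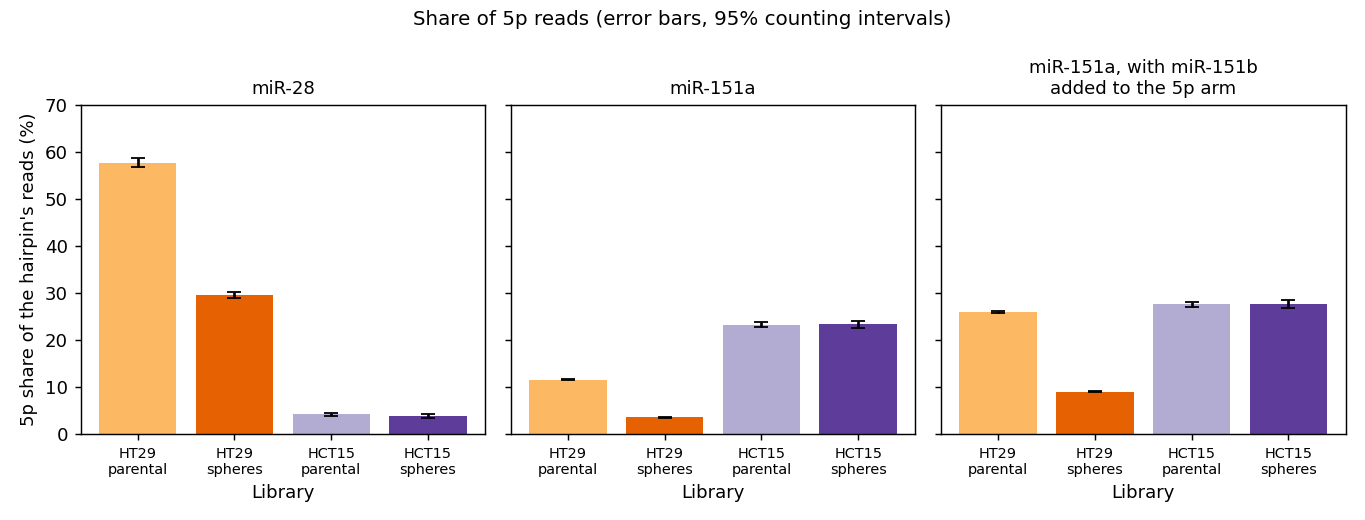
Share of 5p reads among the reads of the hairpin in each library, for miR-28, for miR-151a, and for miR-151a with the reads of miR-151b counted as 5p; error bars are exact 95% counting intervals. In all 3 panels the HT29 sphere bar is well below the HT29 parental bar and the HCT15 bars are level.

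Arm ratios differed between the HT29 cultures in many other hairpins too. Of 136 hairpins with 10 or more reads of each arm in both HT29 libraries, the 5p to 3p ratio was at least 2-fold lower in spheres in 21, or 15.4%, and at least 2-fold higher in 26, or 19.1%. miR-151a and miR-28 stood 8th and 9th from the lowest, next to each other, where the median of the 136 was -0.08. Below them were miR-135b (-2.50) and miR-4664 (-2.31), the hairpins with the lowest values, and miR-140 (-1.84) and miR-425 (-2.05) were among those between. At the other end stood let-7e (2.49) and miR-365a (2.47). In HCT15, 6.67% of 90 hairpins were at least 2-fold lower and 11.1% at least 2-fold higher, and miR-28 and miR-151a stood 31st and 41st from the lowest.

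A fall of the 5p arm together with a rise of the 3p arm, each with an interval that excluded 0 after TMM scaling, was found in 10 of the 136 hairpins in HT29, or 7.35%. Both miR-28 and miR-151a were among these 10, also with total counts. The opposite pattern, a higher 5p and a lower 3p arm, was found in 13. Both arms were higher in 23 and lower in 29. In the other 61, the intervals of the arms did not both exclude 0. Hairpins with few reads have wide intervals and meet such a rule less readily. The 7.35% is thus not the share among hairpins as abundant as miR-28 and miR-151a. In HCT15 the first pattern was found in 5.56% of 90 hairpins, with neither of the pair among them; there both arms of miR-151a were lower.

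**Figure D4:**
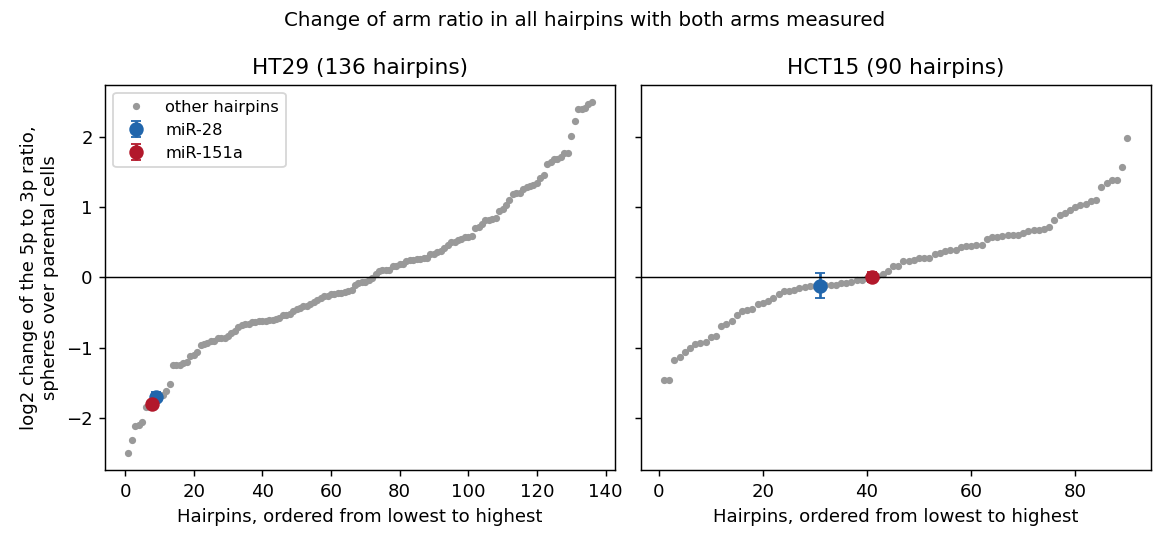
Log2 change of the 5p to 3p ratio from parental cells to spheres in all hairpins with 10 or more reads of each arm in both libraries, ordered from lowest to highest, for HT29 (left, 136 hairpins) and HCT15 (right, 90 hairpins). miR-151a and miR-28, with 95% counting intervals, sit side by side near the low end in HT29 (-1.80 and -1.70) and near 0 in HCT15.

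One further entry bears on the 5p arm of miR-151a. miR-151b (chromosome 14, 100109419 to 100109514, minus strand, within no other annotated gene of that strand) is nearly identical to miR-151a-5p in sequence, so reads of one can be counted for the other. miR-151b had 24998 reads in the parental and 24441 in the sphere library of HT29, more than miR-151a-5p with 15079 and 14794. In HCT15 it had about 1635 and 734 reads, fewer than miR-151a-5p with about 6338 and 2864.

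Between cultures the pair kept one proportion. The ratio of miR-151a-5p to miR-151b was 0.603 (interval 0.591 to 0.616) in HT29 parental cells and 0.605 (0.593 to 0.618) in spheres, although both entries were lower in spheres (log2 ratio -0.58 and -0.59). It was 3.88 (3.67 to 4.10) and 3.90 (3.60 to 4.24) in HCT15 parental cells and spheres. The ratio thus differed between the lines, whose files were made in different units, and not detectably between the cultures of a line. How reads that match both entries were assigned is not given in the sources used here, and its part in the difference between the lines was not tested.

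Counting the reads of miR-151b as 5p reads of miR-151a removed most of the difference between the parental cultures. The 5p share was then 25.9% in HT29 parental cells and 27.6% in HCT15 parental cells, against 11.6% and 23.3% without miR-151b. In spheres it was 9.10% in HT29 and 27.7% in HCT15, and the log2 change between the HT29 cultures stayed at -1.81 (interval -1.83 to -1.78).

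The arm ratios of both hairpins also differed between the lines, in opposite directions. For miR-28 the 5p to 3p ratio was 30.7-fold higher in HT29 than in HCT15 parental cells (log2 difference 4.94, interval 4.82 to 5.06) and 10.2-fold higher in spheres (3.36, 3.21 to 3.51). For miR-151a, without miR-151b, it was 2.31-fold lower in HT29 parental cells (-1.21, -1.25 to -1.16) and 8.08-fold lower in HT29 spheres (-3.01, -3.08 to -2.95). With miR-151b counted as 5p it was only 1.09-fold lower in HT29 parental cells (-0.13, -0.17 to -0.09). In HT29 spheres it was then 3.83-fold lower (-1.94, -1.99 to -1.88). Differences of at least 2-fold between the lines were common: among 88 hairpins in parental cells, the ratio in HT29 was at least 2-fold higher in 42.0% and at least 2-fold lower in 36.4%, and among 81 in spheres in 39.5% and 24.7%. miR-28 stood 80th of 88 from the lowest in parental cells and 71st of 81 in spheres, and miR-151a, without miR-151b, 28th and 7th. In HCT15, inferred reads and deposited values gave the same 5p shares, since every entry of a library was divided by the same value. The files of the lines may still differ in other processing, such as the assignment of reads to entries. The part of such processing in these differences cannot be told apart from the part of the cells.

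Across both lines, with the lines as the only replicates, no member passed the test. In limma, blocking on cell line, 0 of 377 miRNAs, or 0%, passed at 0.05 after Benjamini-Hochberg adjustment, and 21 were under 0.05 before it. The log2 fold changes were 0.39 (SE 0.40, limma adjusted p = 0.787) for miR-28-3p and 0.44 (SE 0.48, limma adjusted p = 0.801) for miR-151a-3p. They were -0.52 (SE 0.47, limma adjusted p = 0.767) for miR-28-5p and -0.46 (SE 0.37, limma adjusted p = 0.760) for miR-151a-5p. miR-708-5p did not reach the filter of 10 CPM in at least 2 libraries and was not tested. edgeR's quasi-likelihood test on reads called 6 miRNAs and DESeq2 called 5, and no member was among them (edgeR adjusted p = 0.950 and DESeq2 adjusted p = 0.993 for each of the 4). Nothing says that cultures were repeated, so the 2 lines are the only replicates behind these p-values. All 3 methods also draw on the spread of other miRNAs, in limma with 1 residual and 2.89 prior degrees of freedom. The p-values are thus not a measure of each member's own spread between the lines.

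Among other miRNAs from introns of protein-coding genes, 35 of 36 listed by name were in all 4 files. Of the 33 averaging 50 CPM or more in HT29, 6 had at least 2-fold more and 8 at least 2-fold less in spheres, with a median log2 ratio of -0.01 against 0.01 over all 221 miRNAs. The highest were miR-152 (2.06), from an intron of COPZ2, and miR-140-3p (1.54), from WWP2. The lowest were miR-15b-5p (-2.56), from SMC4, and miR-335-3p (-1.76), from MEST. In HCT15, 0 of 22 were 2-fold different in either direction, with a median of 0.13 against 0.09 over all 200. The highest of these 22 were miR-148b-3p (0.74) and miR-361-5p (0.42) and the lowest miR-744-5p (-0.75) and miR-339-3p (-0.70).

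Arm ratios of these intronic hairpins did not lean to the 3p side. Of 27 with both arms measured in HT29, 4 had a 5p to 3p ratio at least 2-fold lower in spheres and 9 at least 2-fold higher, with a median log2 change of 0.34. In HCT15 the counts were 1 and 2 of 19, with a median of 0.39.

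The miRNAs whose levels over the 4 libraries ran most like a member's were found by the distance between log2 levels centred on each miRNA's mean, among 235 others that averaged 50 CPM or more. For miR-28-5p they were miR-197-3p (distance 0.17) and let-7d-5p (0.40). For miR-28-3p they were miR-423-3p and miR-3158-3p (0.46 each), for miR-151a-3p miR-378c (0.41) and miR-378i (0.45), and for miR-151a-5p miR-186-5p (0.39) and miR-574-3p (0.41). Among the members themselves the closest pair, miR-28-5p and miR-151a-5p, had a distance of 1.62. The arms of one hairpin had 4.32 for miR-28 and 2.46 for miR-151a. A nearest miRNA picked from 235 has far more candidates than a nearest member, so the 2 kinds of distance cannot be ranked against each other. With 4 libraries these distances mostly reflect the difference between the lines, and they are given as a description.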

How the data were processed

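Per the labels' protocols, the TruSeq Small RNA kit was used on total RNA. The authors deposited HT29 values as raw read counts per mature miRNA and HCT15 values as RPKM, with names from miRBase R19, per the file headers. The submitters' processing notes name hg19. The aligner, the trimming and the handling of reads matching several entries are unknown here (not given in the sources used here). No position was moved between builds: positions come from GENCODE 29 (GRCh38).

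The value of 1 read in HCT15 was read off the commonest low value of entries with 22 bases, at 0.162 RPKM in parental cells and 0.263 in spheres (the commonest value there being 2 reads). Of low values, 72.6% of 285 and 74.1% of 143 came within 0.02 reads of a whole number, against 4.0% of random values, and the value rose by 1.38% from 21 to 22 bases. Inferred reads are therefore approximate. Every entry was given the value for 22 bases.

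Ratios used TMM scaling (edgeR 4.0.16) over the 1882 shared names, a prior count of 2 and an exact conditional binomial interval (scipy 1.17.1). Arm shares have Clopper-Pearson intervals and arm changes log odds ratios with 0.5 added. Across lines, limma 3.58.1 in R 4.3.3 was fitted to log2(scaled CPM + 1), blocking on cell line, after a filter that kept miRNAs reaching 10 CPM in 2 libraries or more. Fold changes of scarce miRNAs are understated on this scale. Its residual degrees of freedom were 1 and its prior ones 2.89 (median), and it was tested on simulated data. DESeq2 1.42.0 and edgeR were alternatives on reads, HCT15 rounded.

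The members, lists and tests were chosen with earlier results of these data known. Named were the members, entries sharing their seed or sequence, the 2 nearest miRNAs per member, the 2 highest and lowest of the intronic list, and the 2 hairpins with the largest arm changes each way in HT29; miR-140 and miR-425 were named after their values were seen.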

Additional observations from a re-analysis of the deposited data

Results flagged for a closer look

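miR-151a-3p pointed in opposite directions in the 2 lines, with log2 ratios of 1.22 in HT29 and -0.34 in HCT15, and kept both directions under the 6 scalings tried. The summed reads of the 5 members were at 1.03 in HT29, where most of the sum is miR-151a-3p, and at -0.19 in HCT15. The HT29 sum was above 0 under all 6 scalings, whereas the HCT15 sum turned above 0 with DESeq2 size factors and with the upper quartile. With 1 library per line and culture the difference between the lines was not tested.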

How the results depend on the processing

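The number of miRNAs called across lines was 0 with limma under 7 alternatives, 7 without a filter on low values, 6 with edgeR on reads and 5 with DESeq2 on reads; no member was called in any. Scaling by total counts turned the across-line fold changes of miR-28-3p and miR-151a-3p to -0.079 and -0.031. The number of members at least 2-fold higher in HT29 was 0 when scaled by total counts and also 0 when the 10 most abundant miRNAs were left out of the totals, and the number at least 2-fold lower was 2 and 1. The summed family in HT29 was at 0.45 with total counts, 1.05 with DESeq2 size factors, 1.25 with the upper quartile, 1.21 with TMM on the line alone and 0.75 without the 10 most abundant miRNAs. In HCT15 it was at -0.54 with total counts, at -0.43 once the 10 most abundant were left out, and above 0 with DESeq2 size factors (0.0167) and the upper quartile (0.0676). With 50 reads per arm and library, 3.70% of HCT15 hairpins were at least 2-fold lower in 5p to 3p ratio. The cause of the differing numbers of calls was not tested. The arm change of miR-151a stayed within its interval in both lines with miR-151b added. Deposited values in place of inferred reads, used for HCT15 only, are no check of the arm changes. Every entry of a library was divided by the same value, so only the 0.5 added could move them. The across-line fit pairs the cultures by cell line; without that block 0 miRNAs were called, and the SE of miR-28-3p was 1.56 in place of 0.40. The labels give no replicate numbers for any other pairing, and leaving out a line leaves the other line's ratio, given above. In HCT15 depth limited miR-28-5p, with 402 reads in spheres.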
